A study of Mus musculus with 16 samples.

Results

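The AP-1 and EGR immediate-early genes were followed across monocyte and DC progenitors (MDPs) and common DC progenitors (CDPs) of mouse bone marrow (BM). Members were chosen by symbol: the noncontrol probes whose gene name is *Fos*, *Fosb*, *Jun*, *Junb*, *Jund*, *Egr1*, *Egr2*, *Egr3*, *Atf3* or *Ier2*. They are 10 probes, 1 per gene, of 39429 noncontrol probes on the array, and all 10 were bright enough to be tested. The study asked how a mammary tumor changes the progenitors of DCs. MDPs and CDPs were sorted from BM of female C57/Bl6 mice that were either tumor-free and age-matched or carried end-stage orthotopic PyMT-B6 tumors, grown to a diameter of 1.5 cm. PyMT-B6 is a mammary tumor line derived from the MMTV-PyMT model, so the tumor-bearing groups stand for 1 transplanted cell line. Each of the 4 groups (MDP tumor-free, MDP PyMT-B6, CDP tumor-free, CDP PyMT-B6) had 4 samples with 2 mice per sample, with 1 array (single color, Cy5) for each sample.

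Immediate-early genes are switched on within minutes of a stimulus, before new protein is made, and their mRNAs are short-lived. FOS and JUN family proteins pair through leucine zippers to form AP-1, which binds DNA near genes of growth, differentiation and inflammation, whereas EGR proteins bind DNA through zinc fingers. In myeloid progenitors, AP-1 and EGR factors are known for their part in monocyte and macrophage differentiation. Cell sorting and tissue handling are also known to induce them.

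Promoter sequences are shown for *Fos*, *Fosb* and *Junb*, the members whose arrays did not overlap between the groups of at least 1 comparison. Each is the 250 bases before the RefSeq gene start on build GRCm38.p6, in the direction of transcription. Capitals mark TGACG, the core of the cyclic AMP response element, and TATAAA, a form of the TATA box. *Fos* lies on the plus strand (chr12:85473640-85473889), *Fosb* on the minus strand (chr7:19310046-19310295) and *Junb* on the minus strand (chr8:84978749-84978998).
Fos: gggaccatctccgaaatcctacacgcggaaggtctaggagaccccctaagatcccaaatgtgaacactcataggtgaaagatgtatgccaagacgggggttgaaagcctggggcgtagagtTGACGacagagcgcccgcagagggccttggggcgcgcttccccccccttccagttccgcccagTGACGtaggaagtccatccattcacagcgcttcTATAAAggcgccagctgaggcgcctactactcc
Fosb: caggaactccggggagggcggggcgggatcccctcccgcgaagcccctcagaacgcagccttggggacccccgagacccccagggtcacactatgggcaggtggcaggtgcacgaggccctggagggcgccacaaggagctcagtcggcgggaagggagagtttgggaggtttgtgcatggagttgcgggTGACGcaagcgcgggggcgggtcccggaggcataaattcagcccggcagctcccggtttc
Junb: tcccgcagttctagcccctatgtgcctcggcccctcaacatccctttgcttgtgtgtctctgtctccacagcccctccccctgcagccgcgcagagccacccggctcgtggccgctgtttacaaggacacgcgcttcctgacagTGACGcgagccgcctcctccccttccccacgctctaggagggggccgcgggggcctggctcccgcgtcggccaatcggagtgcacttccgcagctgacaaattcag

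The *Fos* window holds TGACG at 129 and at 66 bases before the start and TATAAA at 33 bases. The *Fosb* and *Junb* windows hold TGACG once each, at 60 and 106 bases. Windows of 300 bases (250 before the start and 50 after) were found for 7 of the 10 members and not for *Egr1*, *Egr3* and *Ier2*. On either strand, TGACG was present in the windows of 5 of the 7 (*Atf3*, *Egr2*, *Fos*, *Fosb* and *Junb*), against 20.8% of all 32851 windows. TATAAA was in those of *Fos* and *Junb* (13.6% of all windows), but for *Junb* it was not in the 250 bases before the start. The CArG box of serum response factor was in the window of *Egr2* (1.63%) and GCGNGGGCG, the EGR motif, in that of *Fosb* (5.55%). Sequence outside these windows was not searched. The full TGACGTCA, which contains TGACG, was in 0 of the 7 windows, against 1.79% of all windows. The AP-1 motif TGANTCA and the sequence TTCNNNGAA were also in 0 of 7, against 7.81% and 8.30%.

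Levels are log2 processed signals minus the array's own 75th percentile, so a level of 0 equals that percentile and negative levels lie below it. Between 58.8% and 71.5% of the probes of an array were well above background, the 75th percentile lay between 3633 and 4655 intensity units, and 0 probes were saturated. The 16 arrays came on 4 slides of 4, and the slide accounted for a median of 64.4% of the spread within groups over all tested probes. Among the members this share ran from 4.31% for *Egr1* to 61.5% for *Ier2*. The labelled cell types were checked on 6 markers of MDPs and CDPs, of which all 6 passed the filter, and *Kit*, which is higher in MDPs, was lower in CDPs than in MDPs (log2 change −2.59 without tumor and −3.81 with PyMT-B6 tumors, limma adjusted p = 3.8e-06 and 1.05e-07). By their brightest probes the other 5 (*Flt3*, *Csf1r*, *Cx3cr1*, *Csf2rb* and *Irf8*) were called in neither comparison of CDPs with MDPs, with differences from 0.22 to 0.90 without tumor and from −0.29 to 0.73 with PyMT-B6 tumors, so the check of the cell types rests on *Kit*. A dimmer *Csf2rb* probe was higher in CDPs of tumor-bearing mice (0.70, limma adjusted p = 0.0193). A probe was called with a fold change above 1.5 and a Benjamini-Hochberg FDR under 0.05 over all 27433 tested probes in limma, which fits each probe and shares the estimate of spread across probes. With 4 arrays against 4, the smallest exact two-sided permutation p is 0.0286.

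*Fos*, whose product is the founding partner of JUN in AP-1, was the member that changed with tumor in CDPs. Its probe (chromosome 12, 86817900 to 86817959, plus strand, mm9, within the transcript) was printed on 10 spots per array. On the 4 CDP tumor-free arrays (replicates 2 to 5) its level was −2.71, −1.98, −2.06 and −1.90, and on the 4 CDP PyMT-B6 arrays it was −0.95, −0.65, −1.08 and −0.84. Every tumor-bearing CDP array lay above every tumor-free one, with no overlap. The change was 1.28 on the log2 scale (SE 0.20), or 2.43-fold, with a limma adjusted p = 0.00739 and an exact permutation p = 0.0286, higher in 4 of 4 samples. In MDPs the level was −2.36, −1.99, −2.21 and −2.34 without tumor and −2.56, −1.94, −2.31 and −2.68 with PyMT-B6 tumors. These groups overlapped, and their difference of −0.15 was smaller than the spread between arrays (SE 0.20, limma adjusted p = 0.752). After quantile normalization this MDP difference was 0.13, so its sign depends on the scaling.

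The separation held at the level of single spots. Of 155 *Fos* spots in all, the lowest on the CDP PyMT-B6 arrays was at −1.35 and the highest on the 12 other arrays at −1.70. The SD over the 8 to 10 usable spots of an array was 0.111 to 0.264 (median 0.174), so the spot error of an array mean was small beside the change. *Fos* also varied little between arrays of a group: its residual SD of 0.277 was at the 25.8th percentile of all tested probes. Its value is a mean of 8 to 10 spots, whereas each other member was printed on 1 spot. The averaging lowers its SD, so this rank is not a like comparison.

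**Figure D1:**
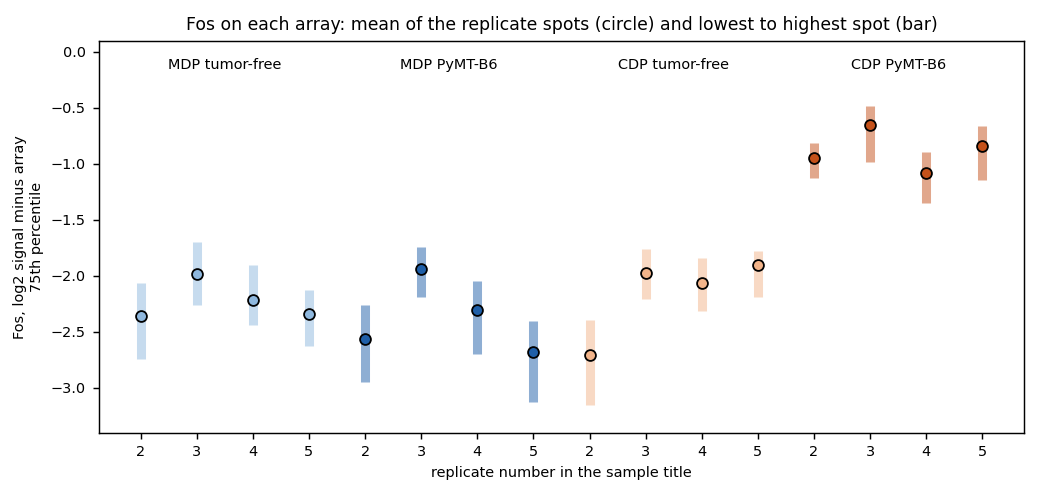
Level of *Fos* on each of the 16 arrays (log2 signal minus the array's 75th percentile) by group and replicate number, with the mean of its replicate spots as a circle and the lowest to highest spot as a bar. The 4 CDP arrays from PyMT-B6 mice stand above all 12 others.

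Between the progenitors of tumor-bearing mice, *Fos* was higher in CDPs than in MDPs by 1.49 (SE 0.20, 2.81-fold, limma adjusted p = 0.000565, 4 of 4 samples above every MDP array). In tumor-free mice the CDP and MDP arrays overlapped, with a difference of 0.06 (SE 0.20, limma unadjusted p = 0.769). The comparison with tumor-free CDPs and that with tumor-bearing MDPs share the same 4 CDP PyMT-B6 arrays. Ordered by mean level, CDP PyMT-B6 (−0.88 ± 0.18, SD, n = 4) came first, followed by CDP tumor-free (−2.16 ± 0.37), MDP tumor-free (−2.22 ± 0.17) and MDP PyMT-B6 (−2.37 ± 0.33), and the last 3 did not differ beyond their spread. Within the 3 slides that held both CDP groups the tumor difference was 0.98, 1.87 and 1.18, and with the slide as a block in the fit it was 1.28 (limma adjusted p = 0.00531). When only the 8 CDP arrays entered the fit, the same change had an adjusted p of 0.0661 and lost its call. The difference from MDPs in tumor-bearing mice was 0.86 and 1.84 within the 2 slides that held both groups.

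Markers of other cell types moved with the tumor as well. The summed level of 9 neutrophil markers, in multiples of the 75th percentile, ran from 4.10 to 11.1 on the CDP tumor-free arrays. On the CDP PyMT-B6 arrays it ran from 14.5 to 27.0. In log2 mean level, *Lcn2* rose from 0.59 to 3.30 and *Mmp8* from 0.42 to 2.29, both called (2 of 9). Only 5 of 9 markers had a tumor difference above 0, and *Ngp*, *Camp*, *Ltf* and *Retnlg* were lower on average. The sum weighs bright genes most, so it does not show a rise of the markers as a set. In MDPs the same sum ran from 2.76 to 5.79 without tumor and from 9.03 to 18.5 with PyMT-B6 tumors. There 5 of 9 differences were above 0, *Lcn2* was called higher (1 of 9), and *Fos* did not change past the threshold. For 9 monocyte and macrophage markers the sum was 46.2 to 60.9 on the CDP tumor-free and 55.5 to 72.5 on the CDP PyMT-B6 arrays, with *Vcan* called higher (1 of 9). That call held in 7 of 16 alternatives and was lost with the slide as a block. A dimmer *Vcan* probe rose by 4.73 in CDPs with tumor (limma adjusted p = 9.77e-06). The erythroid sum was 2.78 to 11.1 and 1.82 to 4.15 on the same arrays, with 0 of 6 markers called. Of the lists for B cells, T and NK cells, mast cells and mammary tumor cells, 0 of 5, 1 of 6 (*Klrd1*, lower), 0 of 4 and 0 of 5 genes were called with tumor in CDPs, and *Ms4a2* of mast cells and *Cdh1* of epithelial cells were above background on no array. The progenitor marker *Kit* fell by 1.34 in CDPs with tumor (limma adjusted p = 0.00441), the 1 of 6 progenitor markers called by its brightest probe. A dimmer *Csf2rb* probe rose by 0.70 in the same comparison (limma adjusted p = 0.0487). The part of these shifts in the *Fos* result was not tested. In sorted populations, a change in the mix of cells and a change of RNA per cell cannot be told apart.

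*Fosb*, a close relative of *Fos* (chromosome 7, 19888168 to 19888227, minus strand, mm9), had a wider spread. In MDPs it was at 0.97, −0.26, 1.16 and −0.00 without tumor and at −0.14, −0.66, 0.14 and −0.55 with PyMT-B6 tumors. In CDPs it was at −0.40, −0.97, −1.70 and −0.88 without tumor and at 1.34, −0.54, 0.11 and −0.07 with PyMT-B6 tumors. The lowest group was thus the tumor-free CDPs, and 3 of 4 tumor-bearing CDP arrays lay above all of them. The tumor difference in CDPs was 1.19 (SE 0.42, limma adjusted p = 0.190, exact permutation p = 0.0571) and in MDPs −0.77 (SE 0.42, limma adjusted p = 0.533), neither past the threshold. In tumor-free mice every CDP array lay below every MDP array, by 1.46 on average (SE 0.42, 2.74-fold, limma adjusted p = 0.0553, exact permutation p = 0.0286). This difference missed the threshold in the fit of all arrays, and its adjusted p ran from 0.0312 to 0.170 over 17 alternatives, of which 6 called it. In tumor-bearing mice the CDP and MDP groups overlapped, with a difference of 0.51 (limma adjusted p = 0.388).

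**Figure D2:**
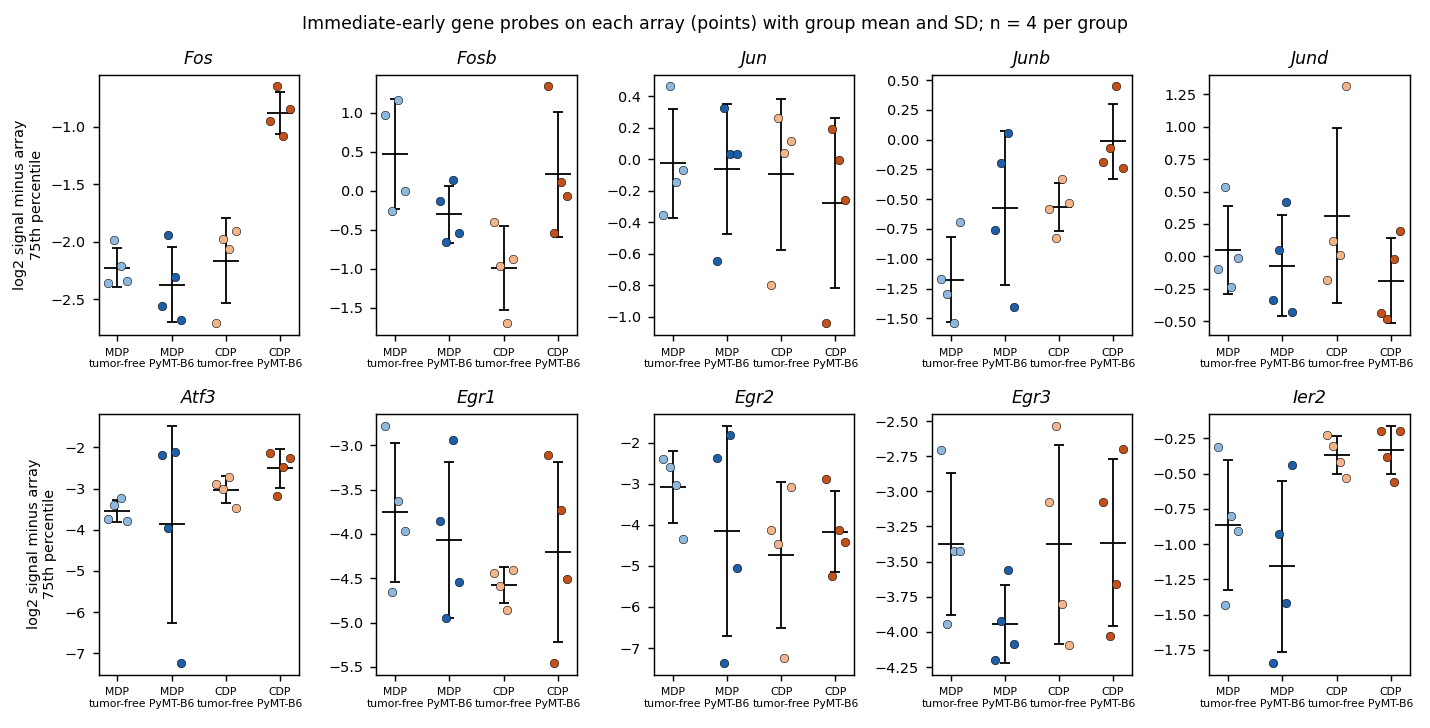
Level of each member (log2 signal minus the array's 75th percentile) on the 16 arrays, as points by group, with the group mean and SD (n = 4). *Fos* separates the CDP PyMT-B6 group from the others, and the lowest points of *Egr2* and *Atf3* are arrays that were not well above background.

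Among the JUN genes, which can pair with each other or with FOS proteins, none passed the threshold in any comparison. *Junb* (chromosome 8, 87501881 to 87501940, minus strand, mm9) was at −0.58, −0.82, −0.33 and −0.53 on the CDP tumor-free arrays and at −0.19, −0.07, 0.45 and −0.24 on the CDP PyMT-B6 arrays. These groups did not overlap (difference 0.56, SE 0.29, exact permutation p = 0.0286), but limma gave an adjusted p of 0.436. In MDPs *Junb* was at −1.17, −1.30, −1.54 and −0.70 without tumor and at −0.76, −0.20, 0.05 and −1.40 with PyMT-B6 tumors. Here the groups overlapped, with 2 of 4 tumor-bearing arrays above all tumor-free ones and a difference of nearly the same size (0.60, limma adjusted p = 0.486). *Jun*, the classical FOS partner, kept group means between −0.28 and −0.03, with array values from −1.04 to 0.46. *Jund*, which is less dependent on stimuli than its relatives, had group means between −0.19 and 0.31, and its highest value, 1.31, was on 1 array of the tumor-free CDPs (replicate 5). The tumor differences were −0.18 for *Jun* and −0.50 for *Jund* in CDPs and −0.04 and −0.12 in MDPs, with limma adjusted p from 0.558 to 0.964.

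*Atf3*, a stress-induced partner of JUN proteins, was called in neither tumor comparison. Without tumor it lay between −3.78 and −3.24 in MDPs and between −3.48 and −2.73 in CDPs. In CDPs from tumor-bearing mice it was at −2.14, −3.19, −2.47 and −2.25, so that 3 of 4 arrays were above all tumor-free CDP arrays (difference 0.52, SE 0.82, limma adjusted p = 0.843, exact permutation p = 0.143). The groups shared 1 estimate of the spread, which was widest in MDPs of tumor-bearing mice, at −2.18, −3.95, −2.12 and −7.23. The last of these arrays was not well above background for *Atf3*, so its value is only a bound.

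None of the EGR genes was called. *Egr1*, which is induced by growth factors through serum response factor, had group means of −3.76 ± 0.78 and −4.07 ± 0.88 in MDPs and −4.57 ± 0.21 and −4.20 ± 1.01 in CDPs, tumor-free and tumor-bearing in that order (SD, n = 4 each), and was well above background on 15 of 16 arrays. *Egr3* had group means from −3.94 to −3.36 and a tumor difference of 0.01 in CDPs (SE 0.37) and −0.57 in MDPs (SE 0.37, limma adjusted p = 0.574). *Egr2*, which is known from macrophages and lymphocytes, was well above background on 13 arrays, 2 of 4 in MDPs and 4 of 4 in CDPs from tumor-bearing mice. Its levels on the tumor-bearing MDP arrays were −2.36, −7.36, −1.82 and −5.06, a range of 5.54, and its residual SD of 1.69 was at the 98.8th percentile of all tested probes. The intervals for *Egr2* are accordingly wide: its tumor difference in CDPs was 0.56 with a 95% interval from −1.82 to 2.94, which includes a change as large as that of *Fos*.

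*Ier2*, a nuclear immediate-early protein outside both families (chromosome 8, 87186214 to 87186273, minus strand, mm9), had nearly level group means in CDPs. It was at −0.22, −0.30, −0.42 and −0.53 in tumor-free and at −0.20, −0.38, −0.56 and −0.20 in tumor-bearing CDPs, a difference of 0.04 (SE 0.28, limma adjusted p = 0.970). In MDPs it was at −0.31, −1.43, −0.80 and −0.91 without tumor and at −1.84, −0.93, −1.42 and −0.44 with PyMT-B6 tumors. The CDP mean exceeded that of MDPs by 0.50 without tumor (limma adjusted p = 0.424) and by 0.83 with PyMT-B6 tumors (limma adjusted p = 0.0845, with 3 of 4 CDP arrays above all MDP arrays), neither past the threshold. Without MDP PyMT-B6 replicate 5, the tumor-bearing difference was 1.06 and passed it (limma adjusted p = 0.0205). When slide entered the model as a block, the difference in all arrays was 0.51 (limma adjusted p = 0.202).

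Over the members as a group, the tumor comparison in CDPs called 1 of 10 (*Fos*), against 1.79% of all tested probes. The tumor-bearing arrays lay above all tumor-free arrays for 2 of 10 (*Fos* and *Junb*), against 5.8% of all probes. The median change of the members was 0.44, with 8 of 10 higher, and that of all 21911 tested genes 0.09. With the slide as a block, 6 of 10 were higher, and with normexp background correction the median was 0.17. In MDPs 0 of 10 were called (0 at an unadjusted p under 0.05, by limma), against 0.062% of all probes. For 0 of 10 did the MDP groups part upward or downward, against 2.8% and 2.42% of all probes. The members' median in MDPs was −0.30 and that of all genes −0.14, with 9 of 10 lower. After quantile normalization 7 of 10 were lower and the members' median was −0.07.

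**Figure D3:**
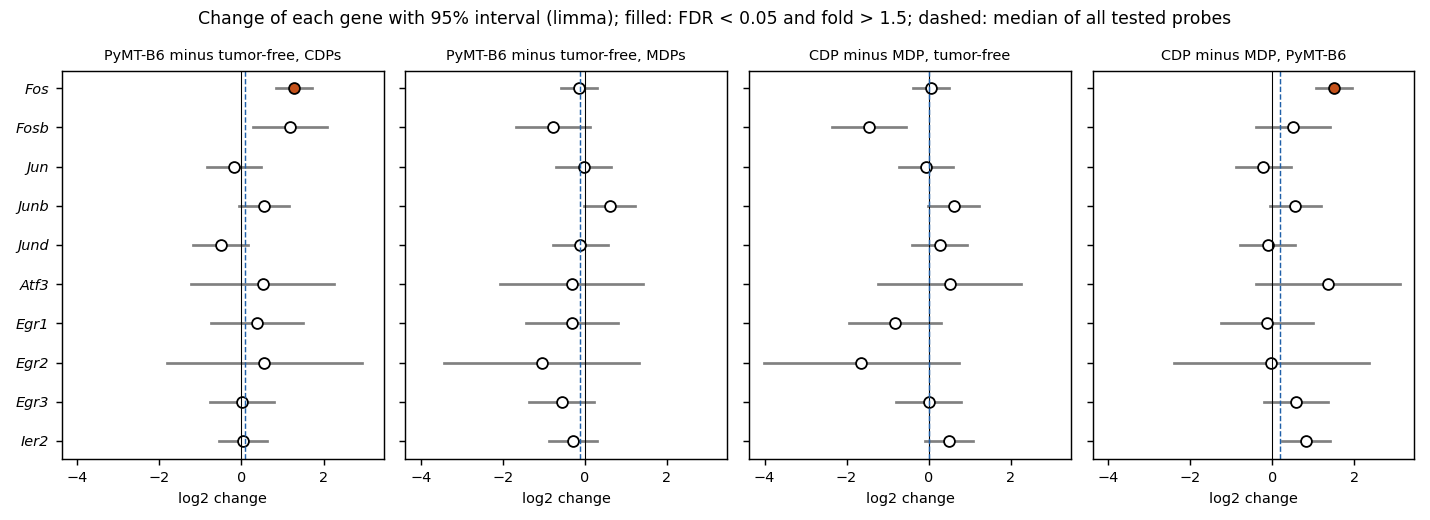
Log2 change of each member in the tumor comparisons within CDPs and within MDPs and in the comparisons of CDPs with MDPs, with the 95% interval from limma. *Fos* is filled in both comparisons that hold the CDP PyMT-B6 arrays, and the dashed line gives the median of all tested probes.

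The tumor change itself was compared between CDPs and MDPs, which called 0 of 10 members, against 0.0146% of all probes (2 of 10 had an unadjusted p under 0.05). For *Fos* the change in CDPs exceeded that in MDPs by 1.43 (SE 0.29, limma adjusted p = 0.417) and for *Fosb* by 1.97 (SE 0.59, limma adjusted p = 0.749). A tumor effect of *Fos* particular to CDPs was therefore not shown after adjustment over all probes. Between CDPs and MDPs of tumor-free mice, 0 of 10 were called (1 at an unadjusted p under 0.05, *Fosb*), against 6.07% of all probes, and for 1 of 10 (*Fosb*) did all CDP arrays lie below all MDP arrays, against 6.77%. In tumor-bearing mice 1 of 10 was called (*Fos*), against 7.24%, and the CDP arrays lay above all MDP arrays for 1 of 10 (*Fos*), against 6.98%. Counts of 0 or 1 of 10 are near these background shares.

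Deviations from the group means were correlated over the 16 arrays for the 7 members above background on all of them, 21 pairs in all. None passed Benjamini-Hochberg adjustment (0 of 21, with 3 at an unadjusted p under 0.05). The pairs with the lowest p were *Fosb* and *Jun*, with r = −0.75 and rho = −0.74 (permutation p = 0.00451 and 0.00399, adjusted p = 0.0887 and 0.0739), and *Fos* and *Jun*, with r = 0.70 and rho = 0.71 (permutation p = 0.00845 and 0.00704, adjusted p = 0.0887 and 0.0739). Without the 2 arrays farthest from the median r was −0.67 and 0.56, and with slide means removed −0.81 and 0.72. Of the 21 coefficients 9 were positive (median r −0.11), and with slide means removed 14 were (median r 0.12).

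The rest of the pathway was described on gene lists. Of 10 tested partners of AP-1 dimers (FOSL, BATF, ATF, JDP and small MAF genes), 0 were called with tumor in CDPs or MDPs. *Fosl2*, a FOS relative, was higher in CDPs than in MDPs of tumor-bearing mice by 1.29 (limma adjusted p = 0.0353). A second, dimmer probe of *Fosl2* was higher by 1.49 (limma adjusted p = 0.00191). The call of the brighter *Fosl2* probe held in 10 of 17 alternatives. A dimmer probe of the small MAF gene *Mafg* was higher in CDPs in the same comparison (0.63, limma adjusted p = 0.0442). Serum response factor, its ELK partners and its MRTF coactivators, which act upstream of *Fos* and *Egr1*, had 0 of 6 called with tumor in CDPs or MDPs. By their brightest probes 0 of 6 were called between CDPs and MDPs, whereas dimmer probes were called in tumor-bearing mice for *Elk3* (−0.91, limma adjusted p = 0.00555) and *Mkl1* (0.75, limma adjusted p = 0.026). The corepressors *Nab1* and *Nab2* of the EGR proteins had 0 of 2 called.

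Among 32 other immediate-early genes, 3 were called with tumor in CDPs and 0 in MDPs, against 1.79% and 0.062% of all probes. *Cdkn1a*, which encodes the cell cycle inhibitor p21, rose by 1.02 (0.60 ± 0.23 to 1.61 ± 0.22, SD, n = 4 each, limma adjusted p = 0.0333). Its dimmer probe had a difference of 1.32 (adjusted p = 0.752). *Gadd45b*, a stress sensor, rose by 0.82 (0.15 ± 0.22 to 0.97 ± 0.26, adjusted p = 0.0477). *Sik1*, a kinase induced by cyclic AMP, fell by 1.42 on the log2 scale (1.57 ± 0.35 to 0.16 ± 0.37, adjusted p = 0.0330), in the opposite direction. These calls held in 8, 7 and 8 of 17 alternatives, against 16 of 17 for *Fos*. The median change of the list was 0.17 in CDPs and −0.03 in MDPs, against 0.09 and −0.14 for all genes. In CDPs, *Id1*, an inhibitor of basic helix-loop-helix factors, had a tumor difference of 1.73 that missed the threshold (limma adjusted p = 0.0621), beside 1.71 in MDPs (limma adjusted p = 0.24). *Trib1*, a pseudokinase gene that regulates C/EBP proteins, was well above background on 1 of 4 CDP tumor-free and 4 of 4 CDP PyMT-B6 arrays and was not called (limma adjusted p = 0.126).

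Between CDPs and MDPs, 6 of these 32 genes were called without tumor and 7 with PyMT-B6 tumors, against 6.07% and 7.24% of all probes. In tumor-free mice the KLF factor genes *Klf2* (3.91), *Klf4* (1.98), *Klf6* (1.47), *Klf10* (0.96) and the kinase gene *Sgk1* (1.93) passed the threshold upward and *Myc*, a driver of proliferation, downward (−1.65), with limma adjusted p from 0.000495 to 0.00536. On the MDP tumor-free arrays *Klf2* was well above background on 3 of 4. In tumor-bearing mice the called genes were *Zfp36* (2.47), *Klf6* (1.77), *Cdkn1a* (1.43), *Klf4* (1.20), *Klf10* (1.02), *Rgs2* (0.71) and, lower, *Myc* (−1.44). *Zfp36* was well above background on 1 of 4 MDP arrays of tumor-bearing mice, so the size of its change rests partly on signal near background. The call of *Rgs2* held in 4 of 17 alternatives, and its other probe had a difference of 0.19 (adjusted p = 0.689). Dimmer probes of 2 genes whose brightest probe was not called were higher in CDPs: *Mcl1*, a survival gene, by 1.08 without tumor and 1.02 with PyMT-B6 tumors (limma adjusted p = 0.00315 and 0.00482), and *Ier5* by 2.56 without tumor (limma adjusted p = 0.0441). The brightest *Ier5* probe had a mean of only −4.40 in tumor-free MDPs and differed by 0.08 (SE 0.35) without tumor.

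**Figure D4:**
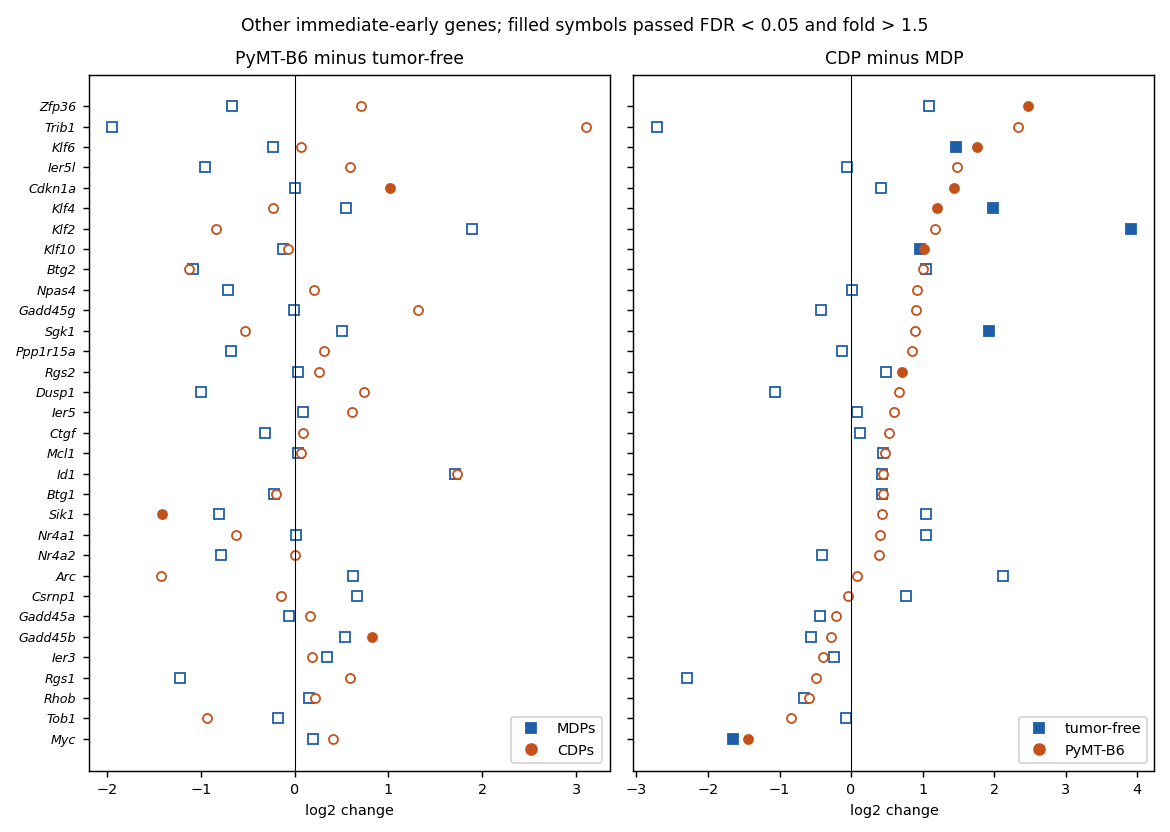
Log2 change of 32 other immediate-early genes with tumor (left, squares for MDPs and circles for CDPs) and between CDPs and MDPs (right, squares for tumor-free and circles for PyMT-B6 mice), with filled symbols for called genes. *Klf4*, *Klf6*, *Klf10* and *Myc* are filled in both states on the right, and *Cdkn1a*, *Gadd45b* and *Sik1* for CDPs on the left.

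Inhibitors of ERK signaling, which acts upstream of *Fos* and *Egr1*, included 1 of 7 called with tumor in CDPs. *Dusp2*, a phosphatase of ERK, fell by 0.76 on the log2 scale (adjusted p = 0.0425, held in 8 of 17 alternatives), and it was lower in CDPs than in MDPs both without tumor (−0.96, adjusted p = 0.00407) and with PyMT-B6 tumors (−1.53, adjusted p = 0.000118). *Spred2* was lower in CDPs than in MDPs of tumor-bearing mice (−1.15, adjusted p = 0.0179, held in 12 of 16 alternatives). Of 14 ERK, JNK and p38 kinase genes, 0 were called with tumor. *Map2k1*, which encodes the ERK kinase MEK1, was higher in CDPs than in MDPs of tumor-free mice (0.65, adjusted p = 0.0195, held in 13 of 17 alternatives) and *Mapk3*, which encodes ERK1, of tumor-bearing mice (0.69, adjusted p = 0.0351). The *Mapk3* call held in 9 of 17 alternatives and was lost when slide entered the model, and its other probe was higher by 0.66 (adjusted p = 0.0389). Heat shock genes, which also respond to handling, had tumor differences above 0 in CDPs for 10 of 10 (median 0.35, against 0.09 for all genes), and 0 were called (2 of 10 at an unadjusted p under 0.05, by limma). In MDPs their tumor differences were above 0 for 9 of 10 (median 0.17, against −0.14 for all genes), and 0 were called.

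The genes whose values ran most like the mean of the 7 members above background on all arrays, of 12061 genes with the same detection, were *Tmub1* (Pearson r = 0.84 over the 16 arrays), *Pik3r5* (0.77), *Tnip2* (0.76), *Sdccag8* (0.76), *Gde1* (0.75), *Zfp957* (0.74), *Tstd1* (0.74) and *Atrn* (0.73). None of these 8 was called with tumor in CDPs (limma adjusted p from 0.276 to 0.946). The mean itself followed *Fos* (r = 0.75) more than *Fosb* (0.15) or *Jun* (0.12), which are part of it. For *Fos* alone, examined after its values were seen, the highest r was that of *Sp8* (0.87), *Plin2* (0.86), *Map3k6* (0.83), *Cd300lf* (0.81), *Nlrx1* (0.80), *Hopx* (0.79), *Trem2* (0.79) and *Snx7* (0.79). All of these but *Plin2* and *Snx7* were also called higher with tumor in CDPs (limma adjusted p from 0.0011 to 0.0262). Coefficients over the 16 arrays include the differences between groups. These arrays share their slides and scaling, and the coefficients are a description.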

How the data were processed

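The deposited files of the 16 arrays are spot tables written by Agilent Feature Extraction 11.5.1.1. Their processed signal is a background-subtracted spot intensity (Cy5), not scaled between arrays. The tables also hold the deposited mean and background intensity and flags of 0 or 1. A deposited series table gives the authors' log2 values of 26793 probes and was used as an alternative. Its 16 columns were each nearest their own array after quantile normalization (r of at least 0.9998). That matches columns to arrays but cannot show how the values were scaled. The submitters' processing notes name limma, and the normalization is not given in the sources used here. Control and outlier spots (182 to 289 per array) were left out. From log2 processed signals the array's 75th percentile was subtracted and spots of a probe were averaged. Probes whose signal was well above background on 3 or 4 of the 4 arrays of any group were tested with limma 3.58.1 in R 4.3.3 on the 4 group means, with the fold change and FDR of the study's methods, tested on simulated data. Correlations used 100000 permutations within groups (scipy 1.17.1). Probe positions (mm9) and symbols are those of the spot tables. Alternatives were normexp (offset 50), quantile and median scaling, other filters, slide and replicate blocks, fits of the compared groups, the methods' t-test, and leaving out each array. Named genes were all members, the 8 genes most like the members' mean, the 8 most like *Fos*, and genes of the lists. Not every listed gene past the threshold is named, and some that are, such as *Id1* and *Trib1*, did not pass it. A gene with several probes is given by its brightest tested probe. The members, lists and naming rule were chosen with earlier results of these data known. The labels number samples 2 to 5, and replicates are separate samples of 2 mice. Same-numbered samples did not deviate together in every pair (r from −0.634 to 0.481).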

Additional observations from a re-analysis of the deposited data

Results flagged for a closer look

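The tumor change differed between CDPs and MDPs at an unadjusted p under 0.05 for 2 of the 10 members. *Fos* changed by 1.28 in CDPs and −0.15 in MDPs, a difference of 1.43 on the log2 scale (limma unadjusted p = 0.000213, adjusted p = 0.417). It ranged from 1.24 to 1.58 over 24 alternatives, none of which called it. *Fosb* changed by 1.19 in CDPs and −0.77 in MDPs, a difference of 1.97 (limma unadjusted p = 0.00516, adjusted p = 0.749, range 1.59 to 2.22). Neither passed the adjustment over 27433 probes. No array of a group of 4 stood apart from the other three in any of the 40 sets of member values by Dixon's criterion, which chance meets in about 1 of 20 sets.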

How the results depend on the processing

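The change of *Fos* kept its sign in all alternatives, with 1.09 to 1.41 in CDPs with tumor and 1.22 to 1.64 between CDPs and MDPs of tumor-bearing mice. The number of members called with tumor in CDPs was 1 and fell to 0 when only the CDP arrays were fitted, was 2 by the methods' t-test (*Fos* and *Fosb*) and 0 by that test after Benjamini-Hochberg adjustment. Between CDPs and MDPs of tumor-free mice it rose from 0 to 1 (*Fosb*) after quantile normalization, with the filter on all 16 arrays, in the deposited value table, with the slide as a block and with the replicate block, and to 2 by the methods' t-test (*Fosb* and *Junb*). Leaving out 1 array gave 0 to 1, the 1 without MDP tumor-free replicate 3. In tumor-bearing mice the count of 1 became 2 by the methods' t-test (*Fos* and *Ier2*) and ran from 1 to 2 without single arrays, the 2 without MDP PyMT-B6 replicate 5. The replicate block changed no other count. In MDPs and for the difference of the tumor changes the count stayed at 0 in the alternatives run. For that difference, a fit of only the compared groups is the same fit, and the t-test was not run. The number of positive pair correlations rose from 9 to 14 of 21 with slide means removed. Of 50 member changes, 22 had another sign in at least 1 alternative, all of them uncalled. The cause of these shifts was not tested. The number of arrays, and signal near background for *Egr2* and *Atf3*, limit the precision.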
